A study of Mus musculus with 2 samples.

Results

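The 34 genes described here are the integrin chains of leukocytes, their cell-surface ligands, and the CD2 and SLAM family of adhesion receptors, taken by symbol from the 32285 genes of the deposited matrices. They were chosen by symbol and not by a cut on measured values, but with earlier results of these data known. Each was followed by its level in marker-gated classes of tumour leukocytes, in 1 library from DGAT1-knockout (KO) tumours and 1 from WT tumours.

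B16-F10, a mouse melanoma cell line, was grown as tumours in mice, with the genotype label KO for DGAT1 in one group and WT in the other. DGAT1 is an enzyme of triglyceride synthesis. Tumours were taken on day 14 after injection, 3 per group, digested with collagenase D and DNase I, and the viable CD45+ cells were sorted for 10x single-cell RNA sequencing. The label names the tumour line, so the leukocytes came from the host animals, and neither the labels nor the files state their strain, sex or age, or whether the KO line was 1 clone. The 3 tumours of a group cannot be told apart in its library, so there was 1 sample per group. No test between groups was possible, and the intervals below cover counting error only.

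Integrins are pairs of an alpha and a beta chain. Chains with beta2 bind ICAM molecules on other cells, chains with beta1 bind collagen, laminin, fibronectin and VCAM1, alphaE with beta7 binds E-cadherin, and chains with alphav bind matrix proteins and latent TGF-beta. Immunoglobulin-fold molecules serve as ligands and as adhesion receptors in their own right, PSGL-1 (Selplg) binds selectins, CD44 binds hyaluronan, and SLAM family receptors mostly bind their own kind on a neighbouring cell. In T cells these molecules hold the contact with a target cell and retain cells in tissue, and in myeloid cells they serve exit from blood and binding to matrix.

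After filtering, 10974 KO and 9091 WT cells remained, with a median of 10772 and 14070 UMIs (unique molecular identifiers, 1 per captured RNA molecule). The libraries shared 25 cell barcodes. The 15 classes were gated on sums of marker genes, none of them a gene described here, and 10 of them, those reaching 100 cells in both libraries, entered the comparison. The largest were CD8 T-like (2261 KO and 1785 WT cells), macrophage-like (1555 and 2837) and monocyte-like cells (1947 and 871). All markers of T cells and both CD8 markers were present in CD8 T-like cells, and all 6 macrophage and all 6 monocyte markers in their classes. Melanoma markers were also found, although the sort was for CD45+ cells: 133 KO and 357 WT cells were melanoma-like. Their median depth was 4644 UMIs in KO and 77182 in WT. In them Dgat1 stood at 18.3 CPM (UMIs per 1000000 UMIs of the class; 95% interval 15.4 to 21.7) in KO and 28.3 CPM (26.3 to 30.3) in WT. Dgat1 was read by 3′ tags, which can lie outside an edited part of the gene, so this does not check the genotype. Free RNA, estimated from macrophage and melanoma genes in lymphocytes, was 2.96% of UMIs in KO and 2.84% in WT.

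All 34 genes reached 50 UMIs in at least 1 class, the minimum for a ratio. The classes in which each gene was highest, by the mean of both libraries, were spread over most of the leukocytes. For 12 genes the values of the highest and the next class overlapped between the libraries, so their order was not firm. These were Itgam, Itgb1, Itgb3, Itgb5, Icam2, Cadm1, Cd2, Cd48, Ly9, Slamf7, Slamf8 and Slamf9. Levels were not divided by gene length, because a 3′ tag counts a molecule once, and each gene is compared here only with itself.

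**Figure D1:**
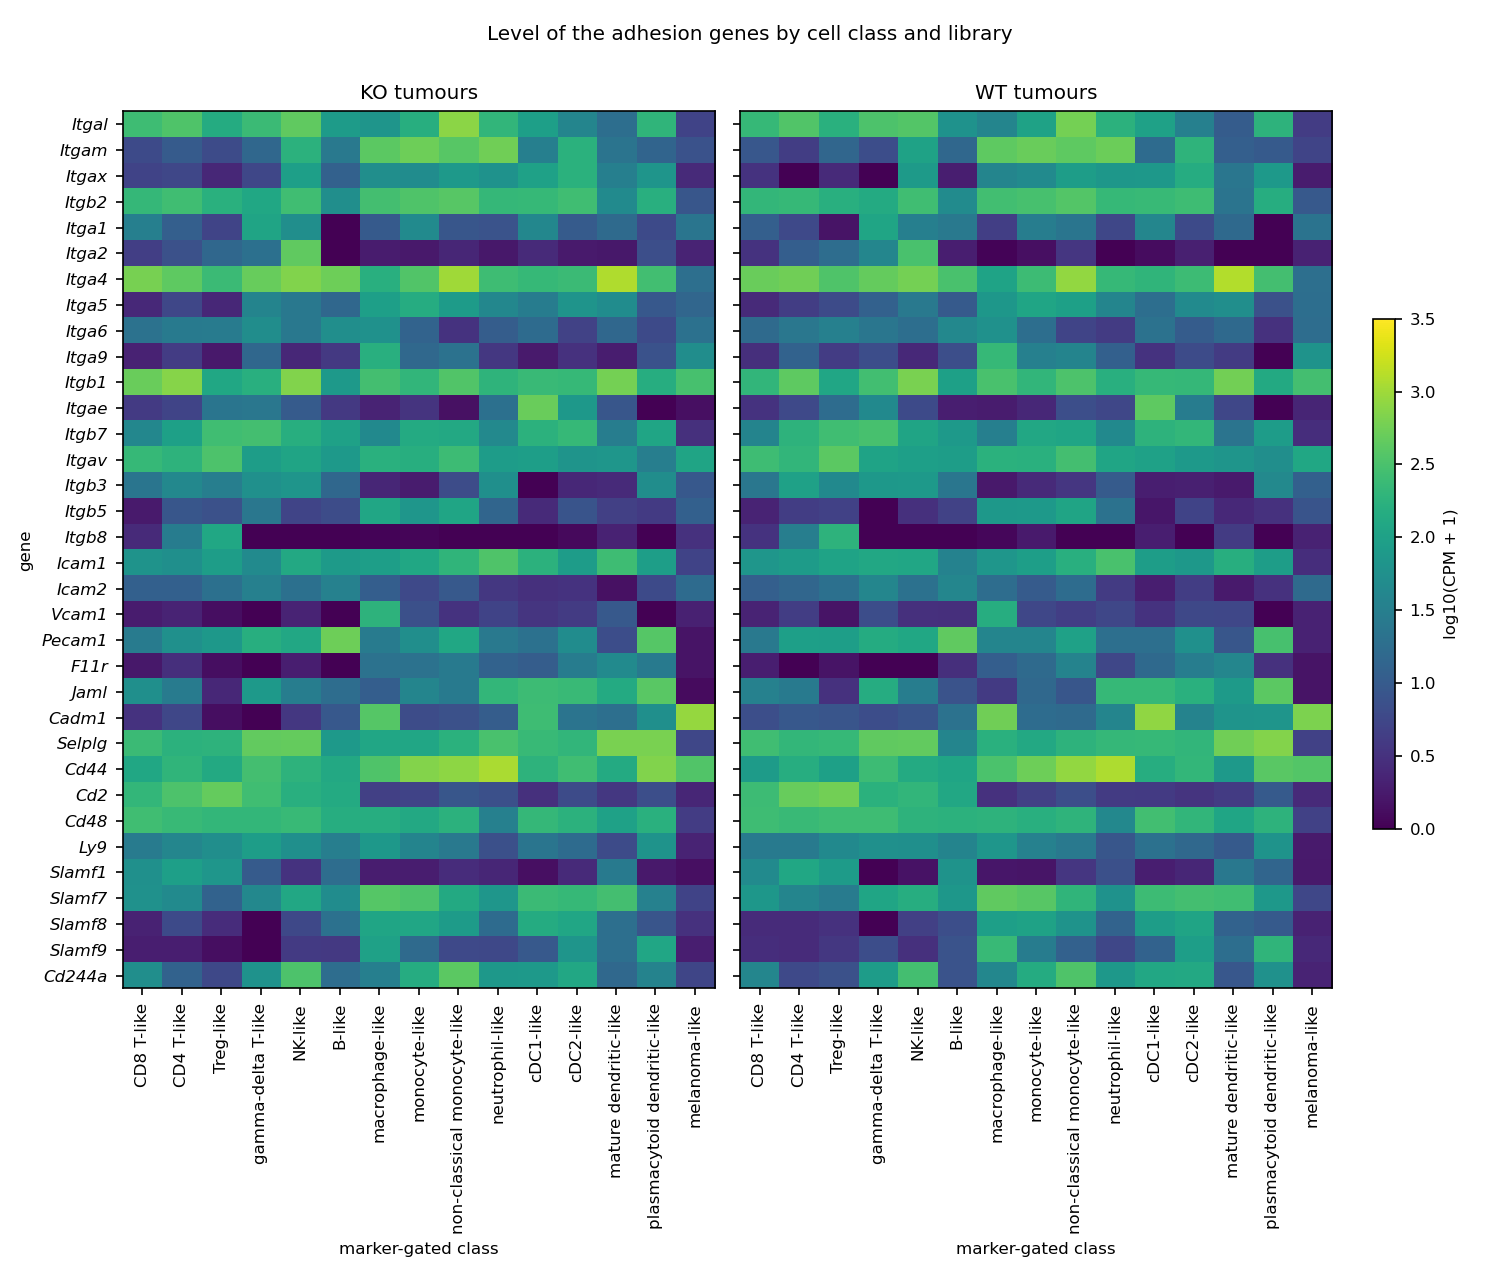
Level of each of the 34 adhesion genes, as log10(CPM + 1), in 15 marker-gated classes (columns) of the KO library (left) and the WT library (right). The same class tends to be bright in both panels, for example neutrophil-like cells for Cd44 (1150 and 1175 CPM) and cDC1-like cells for Itgae (500 and 429 CPM).

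Of the beta2 integrins, Itgal (alphaL of LFA-1) and its partner Itgb2 were highest in non-classical monocyte-like cells. Itgal stood there at 780 CPM in KO and 580 CPM in WT, and Itgb2 at 386 and 368 CPM. Itgam (alphaM of Mac-1) was highest in neutrophil-like cells at 542 and 520 CPM, next to 535 and 493 CPM in monocyte-like cells, so those classes did not differ beyond counting error. Itgax (CD11c, alphaX) was highest in cDC2-like cells at 173 and 145 CPM. Of these chains, Itgam and Itgax are commonly used as surface markers of the classes in which they were highest.

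Of the beta1 partners, Itga2, which pairs with beta1 to bind collagen, was highest in NK-like cells at 435 CPM in KO and 316 CPM in WT, and next in gamma-delta T-like cells at 18.5 and 39.5 CPM (4 and 7 UMIs). Itga1, the alpha chain of the other collagen receptor VLA-1, was highest in gamma-delta T-like cells (111 and 113 CPM, from 34 and 27 cells), followed by NK-like cells (53.3 and 31.3 CPM). Itga4, the VCAM1-binding chain of VLA-4, was highest in mature dendritic-like cells at 1215 and 1232 CPM. Itga5, which binds fibronectin, was highest in monocyte-like cells at 145 and 114 CPM. Macrophage-like cells were highest for Itga6, which binds laminin (57.2 and 58.5 CPM), and for Itga9 (161 and 221 CPM). The shared beta1 chain Itgb1 was highest in NK-like cells, at 676 and 629 CPM.

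The beta7 partner Itgae (CD103) was highest in cDC1-like cells at 500 CPM in KO and 429 CPM in WT, and Itgb7 in gamma-delta T-like cells at 282 and 305 CPM. Treg-like cells were highest for Itgav, at 327 CPM in KO and 420 CPM in WT, and for Itgb8, which with alphav releases active TGF-beta, at 120 and 182 CPM. Itgb8 had no UMI in 6 of the classes in either library. Itgb3 was highest in NK-like cells at 66.7 and 75.2 CPM, and Itgb5 in non-classical monocyte-like cells at 112 and 109 CPM.

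Among the immunoglobulin-fold molecules, Icam1 (the LFA-1 ligand) was highest in neutrophil-like cells, at 348 CPM in KO and 312 CPM in WT, and Icam2 in B-like cells at 33.4 and 39.5 CPM. Macrophage-like cells were highest for Vcam1, the VLA-4 ligand, with 183 CPM in KO and 150 CPM in WT, and no other class exceeded 8.38 CPM. Pecam1 was highest in B-like cells (539 and 443 CPM), F11r (JAM-A, a junctional ligand of LFA-1) in mature dendritic-like cells (46.7 and 39.8 CPM), and Jaml (a JAM-like receptor of leukocytes) in plasmacytoid dendritic-like cells (403 and 409 CPM). Cadm1, a cell adhesion molecule known as a marker of cDC1, was highest in melanoma-like cells at 894 and 650 CPM, with cDC1-like cells next at 262 and 816 CPM.

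Selplg was highest in plasmacytoid dendritic-like cells (631 CPM in KO, 712 CPM in WT) and Cd44 in neutrophil-like cells. In the CD2 and SLAM family, Cd2 was highest in Treg-like cells at 467 and 571 CPM, Slamf1 in CD4 T-like cells at 92.8 and 122 CPM, and Ly9 in gamma-delta T-like cells at 87.9 and 56.4 CPM. Cd48, the ligand of CD2 and CD244, was highest in CD8 T-like cells at 267 and 261 CPM. Cd244a (2B4) was highest in non-classical monocyte-like cells at 415 and 345 CPM. Slamf7 and Slamf9 were highest in macrophage-like cells, Slamf7 at 372 and 445 CPM and Slamf9 at 101 and 225 CPM. Slamf8 was highest in cDC1-like cells at 140 and 87.8 CPM.

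Several of these genes lie side by side. In GENCODE M21 on GRCm38 (mm10), all 34 are protein-coding genes. Itga2 and Itga1 are only 21.0 kb apart on chromosome 13, with 0 coding genes between, and Itgam and Itgax are 11.1 kb apart on chromosome 7. F11r, Cd244a, Ly9, Slamf7, Cd48 and Slamf1 lie in this order on chromosome 1. Between F11r and Cd244a lie 2 other coding genes, and 0 between the next pairs up to Slamf1. Slamf9 lies 674 kb further on, past 17 other coding genes, and Slamf8 follows past 4 more. All 18787 bases of Ly9 lie within the annotated span of Cd244a, on the opposite strand. Whether the authors' counting used strand is not stated in the labels or headers, so the counts of these 2 genes are uncertain.

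The 250 bases before and 50 after the start of transcription were read from RefSeq (GRCm38.p6) for the 4 genes that lead the comparisons below. Itga1 and Itgb1 encode the chains of 1 receptor and were both higher in KO CD8 T-like cells, Jaml was higher in KO in 5 classes, and Slamf9 was lower in KO macrophage-like cells. A promoter was found for 22 of the 34 genes. Capitals mark matches on either strand to the TATA box letters TATAAA, the GC box GGGCGG, the AP-1 motif TGANTCA, the Runx motif TGTGGT, the Ets motif GAGGAA and ACGTG, the core of E-boxes and hypoxia elements. TATAAA is held by 13.6% of 32851 promoters of this length, GGGCGG by 35.7%, TGANTCA by 7.81%, TGTGGT by 16.8%, GAGGAA by 28.3% and ACGTG by 19.6%. Itga1 spans chr13:115101915-115102214 (minus strand), Itgb1 chr8:128685404-128685703 (plus), Jaml chr9:45078933-45079232 (plus) and Slamf9 chr1:172475110-172475409 (plus).
Itga1: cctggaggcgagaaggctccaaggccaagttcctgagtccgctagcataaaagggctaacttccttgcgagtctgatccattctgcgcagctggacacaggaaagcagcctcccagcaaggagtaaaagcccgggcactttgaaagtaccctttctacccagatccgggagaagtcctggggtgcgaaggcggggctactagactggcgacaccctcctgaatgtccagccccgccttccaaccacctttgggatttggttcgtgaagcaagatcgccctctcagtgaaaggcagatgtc
Itgb1: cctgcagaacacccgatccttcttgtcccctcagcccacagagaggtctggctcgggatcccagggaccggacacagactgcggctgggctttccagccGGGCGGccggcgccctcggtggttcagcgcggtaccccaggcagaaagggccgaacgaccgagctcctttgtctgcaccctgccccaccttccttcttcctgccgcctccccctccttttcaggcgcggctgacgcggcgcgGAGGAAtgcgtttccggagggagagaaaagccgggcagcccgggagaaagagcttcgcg
Jaml: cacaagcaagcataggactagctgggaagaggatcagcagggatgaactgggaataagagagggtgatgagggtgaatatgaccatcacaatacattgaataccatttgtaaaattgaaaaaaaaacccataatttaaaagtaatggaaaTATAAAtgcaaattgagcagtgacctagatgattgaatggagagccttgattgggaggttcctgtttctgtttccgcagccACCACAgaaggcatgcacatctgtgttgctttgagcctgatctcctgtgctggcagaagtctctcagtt
Slamf9: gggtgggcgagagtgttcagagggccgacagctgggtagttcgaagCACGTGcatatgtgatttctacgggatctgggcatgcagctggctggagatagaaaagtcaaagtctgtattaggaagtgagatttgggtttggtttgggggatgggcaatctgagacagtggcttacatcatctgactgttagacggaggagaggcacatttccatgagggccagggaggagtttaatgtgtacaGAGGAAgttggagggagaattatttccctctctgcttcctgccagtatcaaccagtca
The Itga1 window held none of these motifs and the Itgb1 window a GGGCGG and a GAGGAA, so the chains of this receptor shared no match. Jaml had 1 TATAAA and 1 TGTGGT (as its complement ACCACA). Slamf9 had 1 GAGGAA and a CACGTG, which matches ACGTG on both strands. A match of letters is not a bound site, and the 3′ tags of these libraries do not read the promoter.

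In CD8 T-like cells the main differences were in the RNA of Itgb1 and Itga1, which encode the chains of the collagen-binding integrin VLA-1. Neither protein nor pairing of the chains was measured, and beta1 also pairs with other alpha chains. Itgb1 stood at 499 CPM in KO and 198 CPM in WT, a ratio of 2.52 (95% interval 2.46 to 2.58). Itga1 stood at 31.3 and 10.4 CPM, a ratio of 3.00 (2.71 to 3.32), from 1670 and 504 UMIs. Jaml was at 53.8 and 33.5 CPM (1.60; 1.51 to 1.71). Itgb1 had a UMI in 89.5% of KO and 83.7% of WT cells, Jaml in 46.1% and 33.7%, and Itga1 in only 27.2% and 13.6%. The KO library was higher for all 3.

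Of the 34 genes measured in this class, 5 were at least 1.5-fold higher in KO, against 3.26% of all 13178 genes, and 5 at least 1.5-fold lower, against 7.05%. The median log2 ratio was 0.03 for the 34 genes and 0.05 for all genes. The other 2 that were higher had low counts: Itga2 stood at 3.49 and 2.26 CPM (1.55; 1.21 to 1.98), and Itgax at 4.05 and 2.24 CPM (1.81; 1.43 to 2.30), with 39.0% and 43.7% of its UMIs estimated as free RNA. The 5 that were lower were Cadm1 (2.23 and 6.03 CPM, ratio 0.37), Slamf9 (0.938 and 1.91 CPM, 0.49), Itga9 (1.16 and 1.99 CPM, 0.58), Itgb5 (0.807 and 1.26 CPM, 0.64) and Itgam (5.07 and 7.81 CPM, 0.65). For these 5 the estimated free RNA ranged from 56.0% to all of their UMIs. Macrophage markers summed to 57.7 CPM in KO and 115 CPM in WT CD8 T-like cells and melanoma markers to 21.6 and 73.4 CPM, all markers of both lists having UMIs; their part in these ratios was not tested. The ratios were recomputed under 12 alternative filters, gates, depths and scalings. Jaml was under 1.5-fold after cells were thinned to 3000 UMIs (log2 ratio 0.49), and Itga2 in 4 of the 12. Itgam and Itgb5 were under it in 5 each and Itga9 in 3, and all 3 changed sign in at least 1.

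The other main T-cell adhesion genes differed by less than 1.5-fold. Itgal was at 256 and 223 CPM (ratio 1.15) and Itgb2 at 210 and 207 CPM (1.02). Itga4, the alternative partner of beta1, was at 609 and 504 CPM (1.21), well under the ratio of Itgb1 itself. Cd44, a marker of antigen-experienced T cells, was at 119 and 83.6 CPM (1.43), and Cd244a at 52.9 and 39.5 CPM (1.34). Cd2 was at 205 and 248 CPM (0.83), Slamf7 at 58.2 and 70.2 CPM (0.83), and Itgav at 222 and 255 CPM (0.87). Itgae, the chain of tissue-resident CD8 T cells, was at 2.89 and 2.24 CPM (1.29; 1.003 to 1.667), a low level in both libraries.

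The differences in Itgb1 and Itga1 were present within clusters of similar CD8 T-like cells, made without the 34 genes. The largest cluster was cluster 1 in KO and cluster 2 in WT. In cluster 1 (1070 KO and 795 WT cells) Itgb1 was at 509.9 and 201 CPM, and in cluster 2 (952 and 844 cells) at 430.2 and 158 CPM. In cluster 10 (228 and 130 cells), which also held most gamma-delta T-like cells, the level was higher in both libraries, at 788 and 645 CPM, and the ratio smaller at 1.22. Itga1 had a ratio of 3.32 in clusters 1 and 2 and 1.61 in cluster 10. Jaml had 1.74, 1.61 and 1.30. So the KO library was higher for these 3 genes in all 3 clusters, least in cluster 10.

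**Figure D2:**
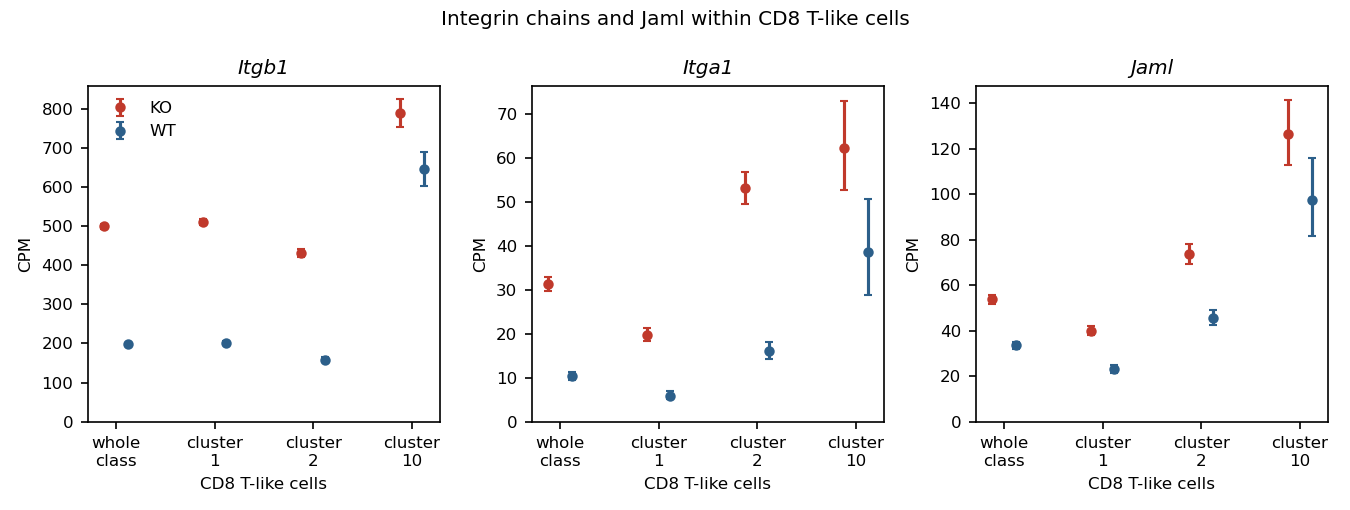
CPM of Itgb1, Itga1 and Jaml in CD8 T-like cells of the KO (red) and WT (blue) library, for the whole class and its 3 clusters. Bars are exact 95% counting intervals; the KO point lies above the WT point in each pair, with the smallest ratio for Itgb1 in cluster 10 (788 and 645 CPM).

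The difference was also seen per cell. The median CD8 T-like cell had 3.38 Itgb1 UMIs per 10000 in KO and 1.25 in WT, and the cell at the lower quartile 1.28 and 0.47. After each cell was thinned to 3000 UMIs, 61.6% of KO cells (59.5% to 63.6%) and 38.2% of WT cells (35.9% to 40.5%) had an Itgb1 UMI, against 89.5% and 83.7% unthinned. This left out 45 KO and 49 WT cells. For Itga1 the thinned shares were 10.6% (9.35% to 11.96%) and 4.72% (3.77% to 5.83%), against 27.2% and 13.6% unthinned. In neutrophil-like cells, where Itga1 was near absent, the thinned shares were 0.820% and 0%, and 0 of 113 WT cells allows up to 2.65%. The CD8 T-like cells had median depths of 18378 and 22006 UMIs and the neutrophil-like cells 4266 and 4515.

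In macrophage-like cells Jaml, Itga1, F11r, Itgal and Itgb5 were higher in KO and Slamf9 was lower. Of 32 genes measured, 7 were at least 1.5-fold higher in KO, against 6.82% of all 13131 genes, and 2 lower, against 5.91%. The median log2 ratio was 0.20 for these 32 genes and -0.003 for all genes. Itgal was at 65.2 and 37.6 CPM (1.73; 1.63 to 1.84) and Itgb5, the alphavbeta5 chain that binds vitronectin, at 118 and 72.4 CPM (1.64; 1.56 to 1.71). F11r was at 19.6 and 9.99 CPM (1.96; 1.75 to 2.20). Jaml was at 10.2 and 2.94 CPM (3.47; 2.88 to 4.19) and Itga1 at 8.79 and 3.41 CPM (2.58; 2.14 to 3.10). Jaml had a UMI in 10.9% of KO and 4.30% of WT cells, with 16.7% and 20.5% of its UMIs estimated as free RNA. Its log2 ratio was 1.80, and ranged from 0.79 to 1.93 over the alternatives. Itgb3 was at 1.39 and 0.709 CPM (1.96; 1.25 to 3.07), from 20 KO and 30 WT cells, with 31.6% and 36.2% of it estimated as free RNA. Cd2 was at 3.57 and 2.19 CPM (1.63), with 83.7% of it in KO and all of it in WT estimated as free RNA.

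Slamf9 was the abundant gene with the opposite difference, at 101 CPM in KO and 225 CPM in WT (0.45; 0.43 to 0.47). Slamf9 is a SLAM family receptor of myeloid cells. After thinning, 16.6% of KO and 34.9% of WT macrophage-like cells had a Slamf9 UMI, against 47.1% and 68.2% unthinned. CD8 T-like cells had 0.316% and 0.864% thinned, close to background. Icam2 was at 10.1 and 16.8 CPM (0.60; 0.53 to 0.69). In the alternatives Icam2 was under 1.5-fold after thinning, Itgb3 in 2 of 12 and Cd2 in 4 of 12. Just short of 1.5-fold were Cadm1, at 372 and 544 CPM (0.68), and Itga4, at 161 and 107 CPM (1.498; 1.44 to 1.56).

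The main macrophage chains differed little between the libraries. Itgam stood at 408 and 430 CPM (0.95), Itgb2 at 280.3 and 274 CPM (1.02) and Itgav at 166 and 169 CPM (0.98). Vcam1 was at 183 and 150 CPM (1.22) and Slamf7 at 372 and 445 CPM (0.84). The largest cluster of the class in both libraries was cluster 4. Within clusters, Slamf9 was lower in KO in 6 of 6, with log2 ratios from -1.24 to -0.15, and Itgal was higher in 5 of 5, from 0.51 to 0.81. Itgb5 was higher in 5 of 5 clusters, the lowest at 0.22. F11r was higher in 5 of 5, but from 0.02 in cluster 3 to 1.40 in cluster 4. Jaml was higher in 3 of 3, from 0.30 to 1.63, less than over the whole class. Monocyte markers summed to 1311 CPM in KO and 839 CPM in WT macrophage-like cells and macrophage markers to 10701 and 12561 CPM, all 6 of each having UMIs. Their part in these ratios was not tested beyond the clusters.

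**Figure D3:**
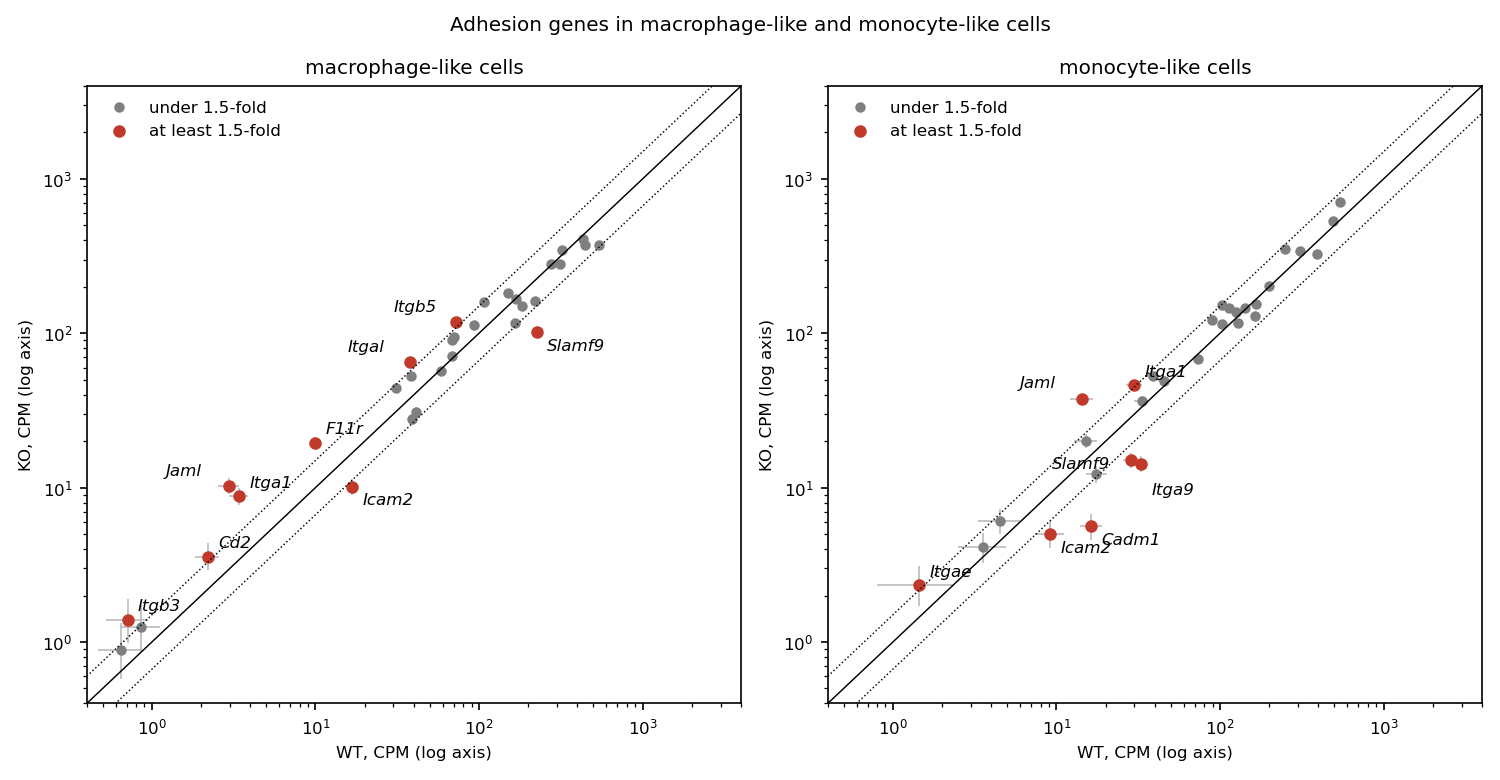
CPM in KO against WT (log axes) for the adhesion genes measured in macrophage-like (left) and monocyte-like cells (right). The solid line is equality, dotted lines are 1.5-fold, grey bars are exact 95% counting intervals, and named red points are at least 1.5-fold apart, such as Slamf9 at 101 and 225 CPM in macrophage-like cells.

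In monocyte-like cells Jaml was higher in KO and Slamf9 lower, as in macrophage-like cells. Of 30 genes measured, 3 were at least 1.5-fold higher in KO, against 5.05% of all 11109 genes, and 4 lower, against 4.96%. The median log2 ratio was 0.13 for these 30 genes and 0.04 for all genes. Jaml was at 37.6 and 14.3 CPM (2.63; 2.20 to 3.16), and Itga1 at 46.1 and 29.7 CPM (1.55; 1.36 to 1.77). Itgae, at 2.34 and 1.44 CPM (1.63; 0.89 to 3.14), came from 18 KO and 12 WT cells and its interval spans 1. At 60 UMIs it was just above the 50-UMI minimum, and Itgb3 with 33 UMIs just below. Itgae was under 1.5-fold in 6 of 12 alternatives and Itga1 in 4.

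The genes that were lower were Itga9, Slamf9, Icam2 and Cadm1. Itga9, which binds tenascin and osteopontin, was at 14.2 and 32.9 CPM (0.43; 0.37 to 0.51). Slamf9 was at 15.05 and 28.5 CPM (0.53; 0.45 to 0.62) and Icam2 at 4.98 and 9.10 CPM (0.55; 0.41 to 0.73). Cadm1 was at 5.60 and 16.3 CPM (0.34; 0.27 to 0.44), with 46.5% and 37.4% estimated as free RNA, and was under 1.5-fold with stricter gates (log2 ratio -0.45). Icam2 was under 1.5-fold in 2 of 12 alternatives. Macrophage markers summed to 967 CPM in KO and 1573 CPM in WT monocyte-like cells, all 6 having UMIs, and melanoma markers to 49.3 and 162 CPM. Their part in these ratios was not tested beyond the clusters.

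The largest cluster of monocyte-like cells was cluster 5 in KO (675 cells) and cluster 0 in WT (328 cells). Within clusters Jaml was higher in KO in 4 of 4, with log2 ratios from 0.91 to 3.37, and Itga1 in 3 of 3, from 0.30 to 0.62. Itga9 was lower in 3 of 4 clusters, and stood at 0.04 in cluster 6, with 51 KO and 60 WT cells. Near the gate lay 614 KO and 262 WT cells. The thinned share of cells with a Jaml UMI was 8.40% in KO and 4.32% in WT, against 19.0% and 10.7% unthinned. No melanoma-like cell had one after thinning, which allows up to 3.70% of 81 KO and 1.13% of 265 WT cells. Itgam, the most used marker chain of monocytes, was at 535 and 493 CPM (1.08), and Cd44 at 712 and 540.2 CPM (1.32).

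Of the dendritic classes, cDC1-like cells had the clearest single difference. Cadm1 was at 262 CPM in KO and 816 CPM in WT (0.32; 0.29 to 0.35), from 116 and 136 cells. Thinned, 38.9% of KO cells (29.7% to 48.7%) and 72.7% of WT cells (64.1% to 80.2%) had a Cadm1 UMI, against 56.0% and 87.5% unthinned. CD8 T-like cells had 0.993% and 1.90% thinned. The 6 cDC1 markers, all with UMIs, summed to 6001 CPM in KO and 5889 CPM in WT. The markers of cDC2 summed to 217 CPM in KO and 120 CPM in WT, and those of mature dendritic cells to 41.5 and 17.4 CPM, all 6 of each having UMIs. Their part in the Cadm1 ratio was not tested. Melanoma markers summed to 23.8 and 86.5 CPM in cDC1-like cells, and the estimated free RNA was 0.996% and 0.746% of the Cadm1 UMIs.

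In the same class Icam1 was higher in KO, at 176 and 88.8 CPM (1.98; 1.70 to 2.32). Slamf8 was at 140 and 87.8 CPM (1.59; 1.36 to 1.87), and Itgam at 31.4 and 15.8 CPM (1.99; 1.38 to 2.91), with 87.2% and 85.7% of its UMIs in 10 cells of each library. Cd244a was lower at 76.2 and 124 CPM (0.61; 0.51 to 0.73). Of 12 alternatives Itgam was under 1.5-fold in 4, Cd244a in 3 and Slamf8 in 2. In all, 4 of 25 measured genes were at least 1.5-fold higher in KO, against 7.17% of all genes, and 3 lower, against 4.52%. Itgae, which marks this lineage, was at 500 and 429 CPM (1.17). The cDC1 gate was narrowed once after values of the 34 genes had been seen, since it had taken in cDC2-like cells.

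In cDC2-like cells Itgae was at 71.5 CPM in KO and 28.6 CPM in WT (2.501; 1.99 to 3.18), but as a mean over cells its log2 ratio was 0.50, under 1.5-fold. Of its UMIs 26.4% in KO and 67.1% in WT lay in 10 cells. The 6 cDC1 markers, of the class in which Itgae is highest, all had UMIs in cDC2-like cells and summed to 1502 CPM in KO and 1157 CPM in WT; their part in the Itgae ratio was not tested. Itga1 was at 8.98 and 5.04 CPM (1.78; 1.02 to 3.33). Cadm1 was lower in KO, at 20.9 and 36.3 CPM (0.58; 0.45 to 0.74), and Itga6 at 3.86 and 9.41 CPM (0.41; 0.24 to 0.70). As a mean over cells Itga1 was at a log2 ratio of 0.12, and without the 10 cells richest in it Itga6 was at -0.19. Of 27 genes measured, 4 were at least 1.5-fold higher, against 7.61% of all genes, and 2 lower, against 3.72%. Near the gate lay 213 of 502 KO cells and 71 of 156 WT cells.

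Mature dendritic-like cells had 8 of 23 measured genes at least 1.5-fold higher in KO, against 9.28% of all genes, and 1 lower, against 3.83%. Icam1 was at 259 and 156 CPM (1.65; 1.48 to 1.86) and Cd44 at 137 and 74.98 CPM (1.82; 1.55 to 2.16). Itgb2 was at 45.8 and 21.4 CPM (2.14; 1.58 to 2.93), with 17.6% and 28.7% estimated as free RNA. Cadm1 was the gene that was lower, at 18.1 and 64.6 CPM (0.28; 0.21 to 0.37), with 83.8% and 85.8% of its UMIs in 10 cells of each library, and as a mean over cells it was under 1.5-fold (log2 ratio -0.50). After thinning Cd44 was at a log2 ratio of 0.19 and Icam1 at 0.43. Cadm1 was thus lower in KO in all 3 compared dendritic classes. In mature dendritic-like cells 14.4% of its KO and 9.41% of its WT UMIs were estimated as free RNA. In cDC2-like cells these shares were 12.5% and 16.8%. Melanoma markers summed to 33.8 CPM in KO and 142 CPM in WT mature dendritic-like cells, and to 31.4 and 105 CPM in cDC2-like cells. Their part in the Cadm1 ratios was not tested.

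NK-like cells had 2 of 24 measured genes at least 1.5-fold higher in KO, against 8.18% of all genes, and 0 lower, against 3.21%. Itgam, acquired as NK cells mature, was at 179 and 102 CPM (1.74; 1.49 to 2.05), and Itga1 at 53.3 and 31.3 CPM (1.71; 1.28 to 2.30). Of the Itga1 UMIs of WT NK-like cells 72.6% lay in 10 cells, and the ratio was under 1.5-fold in 2 of 12 alternatives. Itgb1 was at 676 and 629 CPM in this class, its highest by the mean of both libraries, although CD4 T-like cells stood at 739 CPM in KO.

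In non-classical monocyte-like cells Jaml was at 26.8 and 7.65 CPM (3.51; 1.73 to 8.05), from 59 and 9 UMIs, and Itga9 at 19.6 and 37.4 CPM (0.52; 0.34 to 0.82), which was under 1.5-fold in 2 of 11 alternatives. These were 1 higher and 1 lower of 22 measured genes, against 8.2% and 4.47% of all genes. In neutrophil-like cells Itgb3 was at 54.2 and 9.13 CPM (5.94; 2.61 to 16.7), from 36 KO and 5 WT cells. With only barcodes above the UMI threshold its log2 ratio was -0.68, the opposite side. It was the 1 gene higher of 17 measured, against 9.13% of all genes, and 0 were lower, against 9.01%.

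In melanoma-like cells 4 of 22 measured genes were at least 1.5-fold higher in KO, against 7.69% of all genes, and 0 lower, against 7.3%. Cadm1 was at 894 and 650 CPM (1.38), the opposite side from the dendritic classes. Itgb5 was at 10.9 and 7.11 CPM (1.53; 1.17 to 2.00). Cd244a (4.45 and 1.25 CPM) and Icam1 (4.04 and 1.87 CPM) came from 9 and 16 KO cells, with free RNA estimates from 44.3% to all of their UMIs. Itgb5 was under 1.5-fold in 6 of 12 alternatives, and Cd244a and Icam1 in 2 each.

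**Figure D4:**
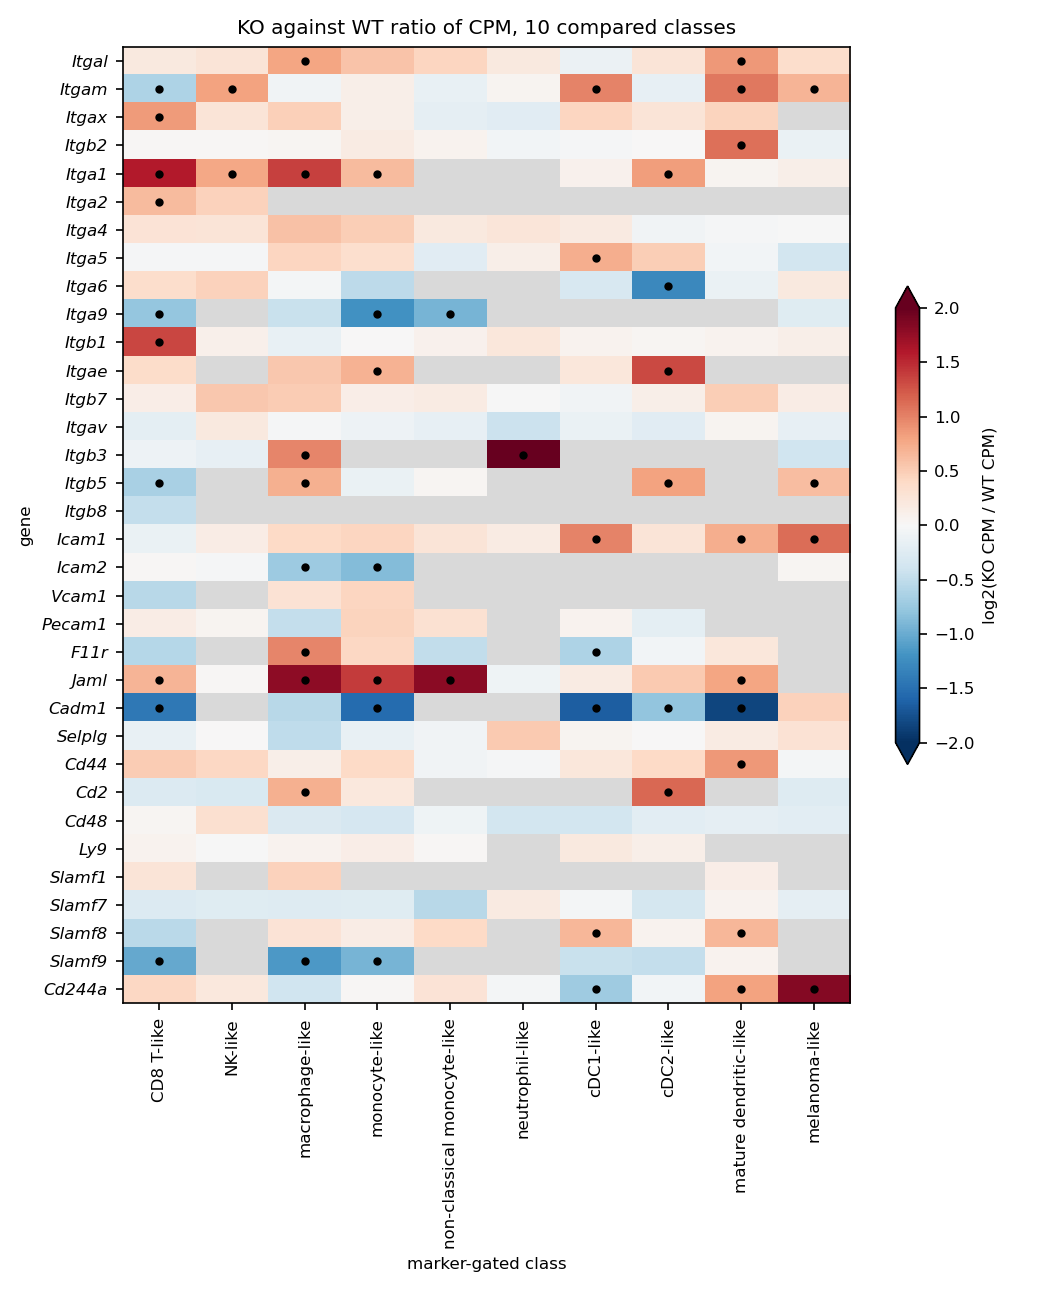
log2 ratio of KO to WT CPM for the 34 genes in the 10 compared classes. Grey cells had under 50 UMIs, dots mark at least 1.5-fold either way, and the Jaml row is red and dotted in 5 classes while the Cadm1 row is blue and dotted in 5.

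Across classes, Jaml was at least 1.5-fold higher in KO in 5 of the 9 compared classes in which it was measured, and Itga1 in 5 of 8. Cadm1 was at least 1.5-fold lower in 5 of 7, Slamf9 in 3 of 6 and Itga9 in 3 of 5. Without CD8 T-like cells these counts were 4 of 6, 2 of 5 and 2 of 4. In CD8 T-like cells all Cadm1 and Slamf9 UMIs were estimated as free RNA, and Itga9 stood at a log2 ratio of 2.39 with free RNA subtracted. Itgb1 passed 1.5-fold in 1 of 10, the CD8 T-like class. The classes of 1 library share its handling, its depth and its free RNA, so they do not repeat the comparison. Whether genes differed between classes in their ratio was not tested.

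**Figure D5:**
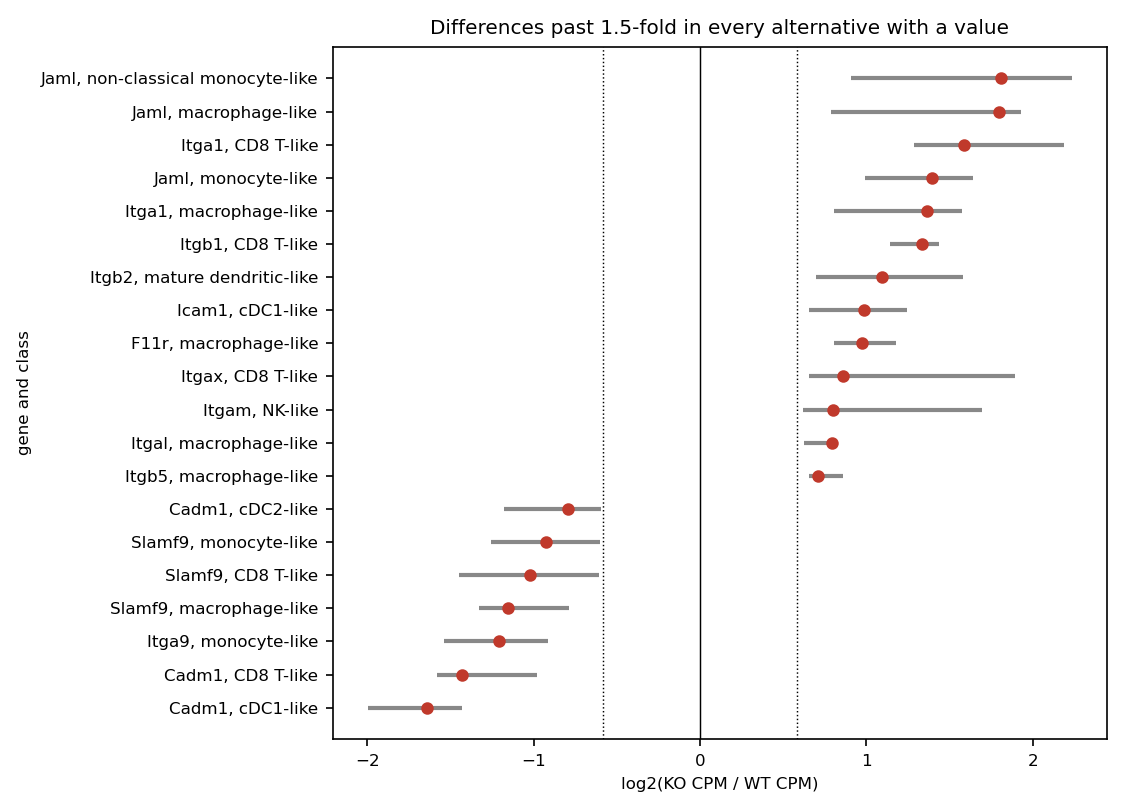
log2 ratio of KO to WT CPM (red points) with the lowest and highest value over the alternatives that gave one (grey lines), for the 20 named differences that stayed at least 1.5-fold throughout. For Cadm1 and Slamf9 in CD8 T-like cells all UMIs were estimated as free RNA, so subtracting it gave no value and their lines span 11 alternatives. Dotted lines mark 1.5-fold; Itgb1 in CD8 T-like cells has one of the shortest lines and Itgax there one of the longest.

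The lists of other adhesion genes, chosen with the 34 genes, place these values. In CD8 T-like cells 3.26% of all genes were at least 1.5-fold higher in KO and 7.05% lower, the shares beside which the counts below stand. There 0 of 23 measured genes of integrin activation (talin, kindlin, RAP1 and their partners) were at least 1.5-fold either way. Among other integrin chains Itga3, a laminin receptor chain, was at 2.98 and 5.86 CPM (0.51) and Itga10 at 1.09 and 0.663 CPM (1.64). Slamf6, a SLAM receptor of T cells, was at 16.7 and 10.8 CPM (1.55), 1 of 9 measured SLAM partners and adaptors. Gcnt1, an enzyme that builds selectin ligands on PSGL-1, was at 14.4 and 23.2 CPM (0.62). Of the 9 measured matrix ligands 0 were higher and 5 lower, led by Spp1 at 20.1 and 32.7 CPM (0.61), with 34.1% and 19.5% free RNA, and Nid1 at 0.601 and 1.62 CPM (0.37). Of 6 other immunoglobulin-fold partners 1 was lower, Icam5 at 0.995 and 2.05 CPM (0.48), and of 6 CD44 partners 0 passed 1.5-fold.

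In macrophage-like cells 6 of 11 measured matrix ligands were at least 1.5-fold higher in KO and 1 lower, against 6.82% and 5.91% of all genes. The same shares stand beside the other lists in this class. Fn1 (fibronectin) was at 204 and 74.7 CPM (2.73) and Edil3, which binds alphav integrins, at 3.57 and 0.950 CPM (3.76). Fbln1 was the gene that was lower, at 0.429 and 1.10 CPM (0.39). Of 25 genes of integrin activation 1 was higher (Skap1, 84.5% to 93.7% free RNA) and 2 lower, led by Fermt2 at 0.929 and 2.10 CPM (0.44). Itga8 was at 7.89 and 3.65 CPM (2.16). Itgad, a beta2 partner, had 2 KO and 139 WT UMIs, a ratio of 0.03 with a counting interval up to 0.13. Fut7, a fucosyltransferase for selectin ligands, was at 1.64 and 1.01 CPM (1.63; 1.09 to 2.40). Sh2d1b1 (EAT-2, an adaptor of SLAM receptors) was at 22.6 and 38.3 CPM (0.59), and Prkcq, a kinase used by SLAM receptors in T cells, at 4.57 and 2.87 CPM (1.60), with 64.5% and 45.3% estimated as free RNA. Of 7 measured CD44 partners 2 were lower, the hyaluronan receptor Hmmr at 18.0 and 34.8 CPM (0.52) and Mmp9 at 0.357 and 1.36 CPM (0.26; 0.12 to 0.51).

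In monocyte-like cells 1 of 23 measured genes of integrin activation passed 1.5-fold (Skap1, with 68.9% of its WT UMIs and all of its KO UMIs estimated as free RNA). Of all genes in this class 5.05% were at least 1.5-fold higher in KO and 4.96% lower, which holds beside each list. St3gal4, a sialyltransferase for selectin ligands, was at 212 and 129 CPM (1.64; 1.54 to 1.74). Of 8 measured matrix ligands, Spp1 (osteopontin, a ligand of alphav and alpha9 integrins) was lower at 646 and 1125 CPM (0.57; 0.56 to 0.59) and Vwf higher at 3.84 and 2.30 CPM (1.67; 1.04 to 2.77). Hmmr was at 1.76 and 5.94 CPM (0.30; 0.19 to 0.46), 1 of 6 measured CD44 partners. Prkcq was at 9.03 and 4.41 CPM (2.05; 1.47 to 2.90), with 32.6% and 29.5% estimated as free RNA, and Nectin2 at 3.22 and 4.98 CPM (0.65; 0.44 to 0.95).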

How the data were processed

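The authors deposited raw UMI counts per gene and barcode for each library, written by Cell Ranger 7.2.0 per the file headers; the genome build was mm10 per the submitters' processing notes. The counts were unfiltered (2270213 and 2638010 barcodes) and gave no cell types. Cells were called as barcodes above a UMI threshold (9118 in KO, 16616 in WT) or with at least 500 UMIs and a profile unlike free RNA (10000 simulations, false discovery rate 0.01), with at least 250 genes and at most 10% mitochondrial UMIs. Scrublet in scanpy 1.11.5 marked 351 KO and 157 WT doublets, which were removed. Classes came from marker gates, and clusters from 2000 variable genes without the 34 genes, 30 principal components and the Leiden method.

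The summed UMIs of a class in a library were expressed as CPM with exact Poisson 95% intervals; ratios have exact conditional binomial intervals. Shares of cells have exact Clopper-Pearson intervals, and a count of 0 allows 3 cells of the total. With 1 library per group no p-value was computed. Interval coverage was tested on simulated counts drawn as Poisson, as the intervals assume, so this does not show coverage under spread between cells or tumours. Named were each gene at its highest class, every gene at least 1.5-fold either way in the 3 largest classes, and elsewhere the 3 each way whose interval lay farthest from 1; of the other adhesion genes, up to 2 each way per list and class by the same measure. Genes named with ratios under 1.5-fold, and the remaining values by cluster, were chosen after their values were seen. The 34 genes, the lists and the gates were chosen with earlier results of these data known, and the cDC1 gate was narrowed after values of the 34 genes had been seen. Depth was 202946827 UMIs in KO and 235652476 in WT over all barcodes. The alternatives covered cell calling, filters, doublets, gates, clusters, composition, thinning, free RNA and scaling. One gene of the lists of other adhesion genes is not reported here.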

Additional observations from a re-analysis of the deposited data

How the results depend on the processing

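Each library is 1 sample, so the limits are those of counting, gating and free RNA, and nothing here measures the spread between tumours. No paired analysis was possible because each group has 1 library. No library could be left out. Of 47 named log2 ratios, 20 stayed at least 1.5-fold in the same direction in every alternative that gave a value, among them Itgb1 and Itga1 in CD8 T-like cells, Jaml and Slamf9 in macrophage-like and monocyte-like cells and Cadm1 in cDC1-like cells. The 20 include Cadm1 and Slamf9 in CD8 T-like cells, for which subtracting free RNA left no UMIs and so gave no value. Of 560 alternative values 12 changed sign. Scaling to the median gene, added after seeing the data, moved all genes by at most 0.10 on the log2 scale (NK-like cells).

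In CD8 T-like cells the 5 genes higher became 3 after thinning to 3000 UMIs, and the 5 lower became 1 after thinning and 2 with doublets kept, with free RNA subtracted or with at least 200 UMIs per gene. The measured genes also fell, from 34 to 24 after thinning, 27 with free RNA subtracted and 26 with at least 200 UMIs. A gene under the minimum leaves the count whatever its ratio. Thinned log2 ratios were still past 1.5-fold for Itgax (1.90), Itga2 (0.61), Cadm1 (-1.12), Slamf9 (-1.45) and Itga9 (-1.27). They were under it for Jaml (0.49), Itgam (-0.03) and Itgb5 (0.23). In macrophage-like cells the 2 lower became 4 with at most 5% mitochondrial UMIs. In monocyte-like cells the 3 higher became 8 with only barcodes above the UMI threshold, 1 with clusters in place of gates, 1 as a mean over cells, 6 without the 10 cells richest in each gene and 5 with at least 10 UMIs per gene, and the 4 lower became 2 with stricter gates. Beyond the number of genes measured, the causes were not tested.

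The log2 ratios that changed sign were, in CD8 T-like cells, Itgam at 0.52 and Itgb5 at 0.13 with doublets kept, Itgb5 at 0.23 after thinning, and Itga9 at 2.39 with free RNA subtracted. With clusters in place of gates Itgae in monocyte-like cells stood at -0.16, and in melanoma-like cells Cd244a at -0.025 and Icam1 at -0.19. Itga9 in non-classical monocyte-like cells stood at 0.18 with stricter gates, and Itgb3 in neutrophil-like cells at -0.68 with only barcodes above the UMI threshold. In melanoma-like cells Icam1 stood at -0.39 and Itgb5 at -0.033 without the 10 richest cells, and Itgb5 at -0.10 after thinning. The cause was not tested.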

Other observations

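The classes with under 100 cells in a library give further values, with counting intervals only. In CD4 T-like cells (227 KO and 61 WT cells) Itgb1 stood at 739 CPM in KO and 431 CPM in WT, a ratio of 1.71 (1.51 to 1.95), on the same side as in CD8 T-like cells. Itga4, which pairs with beta1 or beta7, was at 433 and 554 CPM (0.78), and its other partner Itgb7 at 95.7 and 185 CPM (0.52; 0.42 to 0.65). Itgb3 was at 41.6 and 99.9 CPM (0.42; 0.31 to 0.57). Cluster 14, the largest of the CD4 T-like class in both libraries, held 160 of its 227 KO and 30 of its 61 WT cells. Macrophage markers summed to 99.4 CPM in KO and 180 CPM in WT CD4 T-like cells, and melanoma markers to 24.6 and 188 CPM. Their part in these ratios was not tested. In Treg-like cells (125 and 95 cells) Itgb8 was at 120 and 182 CPM (0.66; 0.57 to 0.77), Itgav at 327 and 420 CPM (0.78) and Itga4 at 244 and 347 CPM (0.71), while Cd44 was at 134 and 96.0 CPM (1.39; 1.16 to 1.67).

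In plasmacytoid dendritic-like cells (124 and 34 cells) Cd44 was at 690.5 and 400.3 CPM (1.72; 1.47 to 2.03), and Slamf9 at 116 and 197 CPM (0.59; 0.45 to 0.77), on the same side as in macrophage-like cells. Slamf7 was at 33.9 and 71.4 CPM (0.47; 0.30 to 0.77). In B-like cells (60 and 142 cells) Itga4 was at 534 and 310.5 CPM (1.72; 1.43 to 2.06) and Slamf1 at 16.7 and 61.3 CPM (0.27; 0.10 to 0.63), the latter from 6 and 62 UMIs. In gamma-delta T-like cells (34 and 27 cells) Itgb1 was at 162 and 271 CPM (0.60; 0.38 to 0.94), the opposite side from CD8 and CD4 T-like cells; whether the classes differed was not tested.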
